A study of Mus musculus with 6 samples.

Results

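The genes described here encode the proteins of the cytosolic ribosome. They were the protein-coding genes whose symbols follow the pattern Rpl or Rps with a number, together with Rplp0, Rplp1, Rplp2 and Rpsa, without the Rps6k kinases and without loci named as pseudogenes. The pattern gave 82 genes among the 32739 in the expression tables, 50 for the large subunit and 32 for the small one. Of these, 80 passed the filter on low counts, 48 large and 32 small. Rpl10l and Rpl39l, copies known for expression in the testis, had 0 counts in all 6 libraries. Rpl24, Rpl41 and Rpl32l were not analysed here. The RNA came from HL-1 cells, an established mouse atrial cardiomyocyte line that divides in culture. BRL, a β3-adrenergic receptor agonist at 5 µM, was set against vehicle, with 3 libraries each. The cells of both groups had 6 h hypoxia and then 1 h reoxygenation, and no library of cells kept without hypoxia was part of the comparison. The labels do not say whether the 3 libraries of each group are separate cultures, so the p-values measure the spread between these libraries, which may be technical.

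Each cytosolic ribosome holds a single copy of nearly all of these proteins, in a large subunit that joins amino acids and a small subunit that reads the mRNA. Their mRNAs are among the most abundant of a growing cell. In vertebrates these mRNAs begin with a run of pyrimidines, the TOP motif, through which mTORC1 and the RNA-binding protein LARP1 control their translation and stability. A few members have a second gene copy with its own tissue pattern, and nearly all have left processed pseudogenes, spliced copies of their mRNA, across the genome.

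The starts of some members are shown because the pyrimidine run at the start is the sequence feature this gene family is known for. They are chosen examples, and runs are more frequent among them than among all members, whose share follows the lines. Each line holds the 15 bases before and the 15 bases after a transcription start that RefSeq places on GRCm38.p6, 5′ to 3′ on the strand of the gene, and capitals mark a run of 8 or more C or T that lies near the start. The first 5 genes rose in BRL cells, as given below, and the other 5 did not pass the test.
Rpl28, chr7:4792950-4792979, plus strand: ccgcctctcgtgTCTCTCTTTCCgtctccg
Rpl18, chr7:45718056-45718085, plus strand: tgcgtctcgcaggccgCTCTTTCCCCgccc
Rplp2, chr7:141447636-141447665, plus strand: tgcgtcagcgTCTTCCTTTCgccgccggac
Rps27, chr3:90213634-90213663, minus strand: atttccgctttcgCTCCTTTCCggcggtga
Rps21, chr2:180257364-180257393, plus strand: taccgaggacccgccctcctgcccaatagt
Rpl35, chr2:39005117-39005146, minus strand: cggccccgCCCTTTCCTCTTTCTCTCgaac
Rps10, chr17:27635230-27635259, minus strand: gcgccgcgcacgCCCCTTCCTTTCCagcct
Rps15a, chr7:118116133-118116162, minus strand: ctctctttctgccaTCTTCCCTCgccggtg
Rpl22l1, chr3:28805493-28805522, plus strand: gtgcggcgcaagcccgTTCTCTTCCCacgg
Rps27l, chr9:66946071-66946100, plus strand: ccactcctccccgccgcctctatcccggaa

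A RefSeq start was found for 62 of the 82 members, 74 starts in all, and for 53 of the 62 the 20 bases after a start lie in a GENCODE transcript of the gene. A run of 8 or more C or T on the gene's strand, within 8 bases before to 14 after a start, stood in 23 of 62 members, or 37.1%, against 9.53% of the 27025 RefSeq symbols. It stood in 39.5% of the large and 33.3% of the small subunit members. Among members that rose it was found in 4 of 8, against 19 of the 52 tested members that did not pass. The median log2 fold change was 0.30 over the 23 tested members with a run and 0.26 over the 37 tested members without one. The letters CCGGAAG on either strand, the core of sites for ETS factors, stood between 250 bases before and 50 after a start in 40.3% of members, against 9.93% of all symbols. The letters AAGATGGC, the core of sites for YY1, stood in 9.68% of members, against 3.19% of all symbols, and a match may share bases with CCGGAAG or with a run. A match describes these letters only.

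The values are expected counts, the reads that the authors' software assigned to each gene, and the BRL libraries held 6812810, 7516242 and 8332472 of them, against 4440168, 4872948 and 5060049 in the vehicle libraries. The depths of the groups therefore did not overlap. BRL library 1 stood apart: mitochondrially encoded genes took 5.03% of its counts, against 21.9% and 20.0% in BRL libraries 2 and 3, and 16.5% to 20.2% in the vehicle libraries. Results are therefore given with and without it. Of the 12 listed markers of atrial cardiomyocytes, 11 were tested, and Sln, with 0 to 5 counts a library, failed the filter on low counts. CPM are counts scaled to the effective size of the library. The 12 markers summed to 4294, 5672 and 5882 CPM in the BRL libraries, against 7568, 8271 and 8367 CPM in the vehicle libraries. Most of that difference lay in Myh6, a myosin heavy chain, with 979, 1398 and 1611 CPM in BRL, against 3002, 3404 and 3602 CPM in vehicle libraries. Of the 11 tested markers, Myh6 and Pln fell by edgeR's quasi-likelihood test, where 1.79% of all genes fell, and 0 rose. The other 9 did not pass. Their log2 fold changes were positive for Tnni3, Gata4 and Nkx2-5 (0.18, 0.22 and 0.38) and near 0 for Tnnt2 and Nppa (−0.05 and −0.06). They were negative for Ryr2, Myl7, Myl4 and Actc1 (−0.15, −0.16, −0.44 and −0.89). Without BRL library 1, 3 markers rose and 5 fell, where 10.3% of all genes rose and 10.9% fell. The 5 smooth muscle markers, genes that HL-1 cells can also express, summed to 1269, 2393 and 2643 CPM in BRL, against 3061, 3455 and 3275 CPM in vehicle libraries. Markers of fibroblasts, endothelium and leukocytes each summed to at most 4.77 CPM in BRL and 6.32 CPM in vehicle libraries, with 3 of 7, 1 of 5 and 2 of 5 at 0 in every library. The part of depth and of these markers in the results below was not tested. In bulk RNA, fewer cells of a type and less RNA per cell cannot be told apart.

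Ribosomal protein mRNAs took a larger share of the counts in BRL cells. The 82 members made up 3.83%, 3.48% and 3.47% of counts in the BRL libraries, against 3.18%, 2.96% and 2.88% in the vehicle libraries, and the groups did not overlap. The mean was 3.59% ± 0.203 in BRL and 3.01% ± 0.155 in vehicle cells (SD, n = 3 each), and counting error was small beside this, since the widest 95% Wilson interval of a library spanned 0.033 percentage points. With mitochondrially encoded genes left out of the total, the shares were 4.03%, 4.46% and 4.33% in BRL, against 3.81%, 3.71% and 3.59% in vehicle libraries. As a share of transcripts, which corrects for length, they were 11.3%, 8.55% and 8.76% in BRL, against 8.57%, 7.64% and 7.57% in vehicle libraries, and here the lowest BRL library lay below the highest vehicle library.

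Gene by gene, most members were somewhat higher in BRL cells and few passed the test. In edgeR's quasi-likelihood test, with p adjusted over all genes by Benjamini and Hochberg's method, 11 of the 80 tested members rose at an adjusted p under 0.05, or 13.8%, against a background of 1.01% of the 12047 genes tested, and 0 fell, against a background of 1.79%. The adjusted p of the 11 lay between 0.0123 and 0.0478. Another 16 members, all higher in BRL, had an adjusted p between 0.05 and 0.1. At an unadjusted p under 0.05, 49 members were higher and 2 lower, where 11.6% of all genes were higher and 10.8% lower. Other tools differed in number: DESeq2 called 29 risen members (background 2.04%), edgeR's exact test 28 (background 3.47%) and limma-voom 10 (background 0.789%). DESeq2 and the exact test each called 1 fallen member, Rpl22l1, where 2.95% and 4.37% of all genes fell, and limma-voom called 0, where 1.53% fell. In 52 of the 80, or 65.0%, every BRL library lay above every vehicle library, against a background of 16.0%. In 4, namely Rpl3l, Rpl5, Rpl22l1 and Rps15a, every BRL library lay below, or 5.00% against a background of 15.5%. The median log2 fold change was 0.30 over the 80 members, 67 of which were above 0, against 0.01 over all genes tested, 50.7% of which were above 0.

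**Figure D1:**
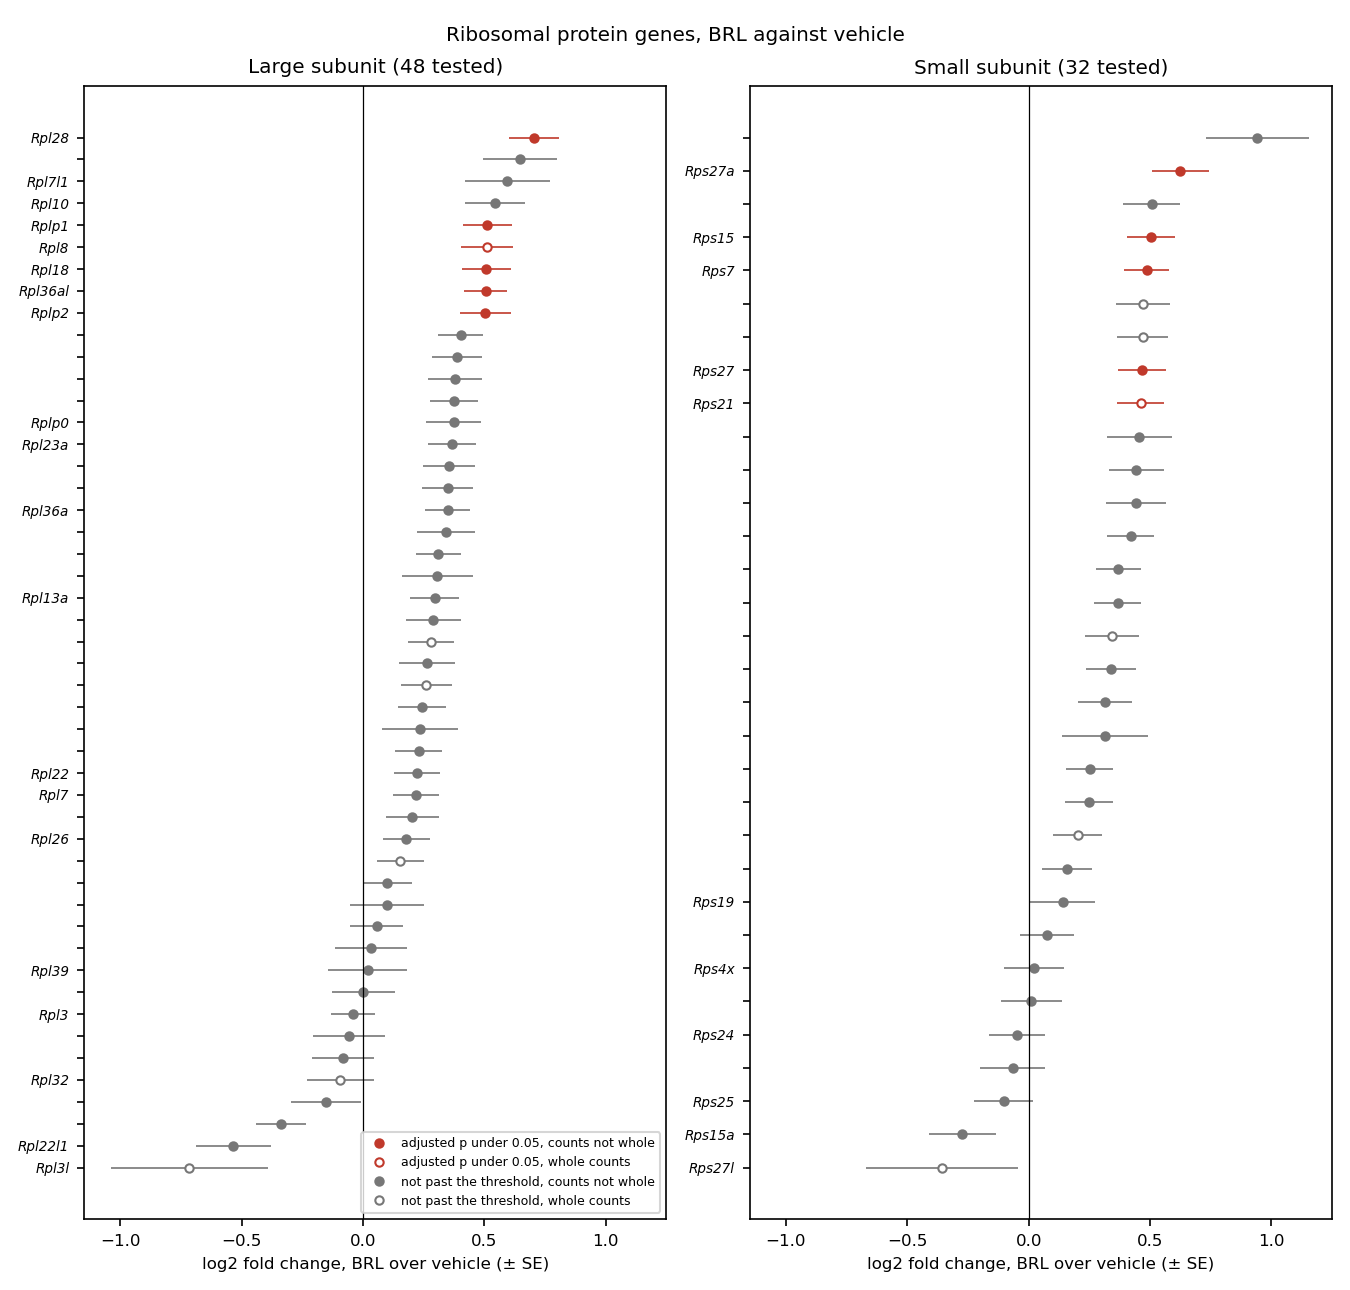
Log2 fold change of BRL over vehicle for each tested member (horizontal axis, bars the standard error), large subunit left and small subunit right, sorted by size; named on the axis are the risen members, gene copies with their partners, and the 5 most abundant members of each subunit. Red points passed an adjusted p of 0.05 and open points had whole counts in every library; the 11 red points lie between 0.46 and 0.70, and 67 of the 80 points lie above 0.

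The number of calls turned on single libraries. Without BRL library 1, 52 of 80 members rose by the same edgeR test, or 65.0%, against a background of 10.3% of all genes, and the 11 members above were all among them; 2 fell, Rpl5 and Rpl22l1, against a background of 10.9%. Without BRL library 2 the test called 2 risen members (background 0.357%), without BRL library 3 it called 1 (background 0.373%), and without vehicle library 1 it called 1 (background 0.178%). Without vehicle library 2 or 3 edgeR's test called 0, where it called 0.162% and 0.138% of all genes. In these fits 38 and 34 members had an unadjusted p under 0.05, and the share of all genes at that p was not worked out. The median log2 fold change moved less, between 0.27 and 0.35 over these 6 fits.

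Among large subunit genes, 6 of 48 rose: Rpl28, Rpl18, Rpl8, Rpl36al, Rplp1 and Rplp2. Rpl28, which encodes a protein that eukaryotic ribosomes have and bacterial ones lack, had 299, 336 and 286 CPM in the BRL libraries, against 184, 201 and 181 CPM in the vehicle libraries. Its groups stood well apart, and its log2 fold change of 0.70 ± 0.10 (SE; adjusted p 0.0123, edgeR's quasi-likelihood test) was the highest among tested large subunit members. Pseudogenes matching its sequence held 8.38% of the combined counts in BRL and 16.5% in vehicle libraries. With them added, the log2 fold change of Rpl28 was 0.57 and still passed (adjusted p 0.0384, edgeR's quasi-likelihood test). The highest large subunit value was then 0.59, in another gene. Rplp1 and Rplp2 encode the acidic proteins of the stalk, the flexible arm that recruits the elongation factors. Rplp1 had 463, 516 and 469 CPM in the BRL libraries, against 363, 338 and 314 CPM in the vehicle libraries. Rplp2 had 280.0, 276 and 259 CPM in BRL, against 194, 209 and 171 CPM in vehicle libraries. Both stalk genes were higher in every BRL library than in any vehicle library, with log2 fold changes of 0.51 ± 0.10 and 0.50 ± 0.11 (SE). Rplp0, the base on which they sit, had 1641, 1648 and 1485 CPM in BRL, against 1316, 1210.1 and 1158 CPM in vehicle libraries; its groups did not overlap either, but its log2 fold change of 0.37 ± 0.11 did not pass (adjusted p 0.108, edgeR's quasi-likelihood test). Rpl8, a core protein close to the catalytic centre, had 393, 346 and 318 CPM in BRL, against 254, 243 and 244 CPM in vehicle libraries, with a log2 fold change of 0.51 ± 0.11. Rpl18 had 546, 579.9 and 517 CPM in BRL, against 399, 395 and 360.4 CPM in vehicle libraries, with a log2 fold change of 0.51 ± 0.10. Rpl13, a gene with a larger log2 fold change of 0.65 ± 0.15, had 432, 431 and 423 CPM in BRL, against 345, 241.8 and 234 CPM in vehicle libraries. Vehicle library 1 lay nearest to the BRL libraries, and Rpl13 did not pass (adjusted p 0.0614, edgeR's quasi-likelihood test). Pseudogenes matching Rpl13 held 32.3% of the combined counts in BRL and 41.8% in vehicle libraries. With them added its log2 fold change was 0.44. Rpl36al, the sixth, is described with its partner further on, and the 5 risen genes other than Rpl28 lay between 0.50 and 0.51 on the log2 scale.

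Among small subunit genes, 5 of 32 rose: Rps27a, Rps15, Rps7, Rps27 and Rps21. Rps27a, which encodes a small subunit protein made as a fusion with ubiquitin, had 49.5, 41.3 and 47.6 CPM in the BRL libraries, against 32.0, 28.4 and 29.2 CPM in the vehicle libraries. It was higher in every BRL library, with a log2 fold change of 0.63 ± 0.12 (SE; adjusted p 0.033, edgeR's quasi-likelihood test). Rps7, known to bind the p53 regulator Mdm2 when ribosome assembly is disturbed, had 718, 698 and 669 CPM in BRL, against 499.7, 488 and 499.1 CPM in vehicle libraries. Rps15, which in human cells the small subunit precursor needs to leave the nucleus, had 326, 372 and 331 CPM in BRL, against 246, 249 and 229 CPM in vehicle libraries. Rps7 and Rps15 had log2 fold changes of 0.49 ± 0.09 and 0.51 ± 0.10. Rps27 had 326, 331 and 330 CPM in BRL, against 246, 253 and 214 CPM in vehicle libraries, and Rps21 had 228, 236 and 208 CPM in BRL, against 163, 171 and 155 CPM in vehicle libraries. Their log2 fold changes were 0.47 ± 0.10 and 0.46 ± 0.10, and neither gene's groups overlapped. Rpsa, which is both a small subunit protein and a laminin receptor, had 691, 691 and 607 CPM in BRL, against 585, 492 and 522 CPM in vehicle libraries, and its log2 fold change of 0.31 ± 0.11 did not pass (adjusted p 0.152, edgeR's quasi-likelihood test).

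Whole counts are counts in which no read was divided between genes, and 12 tested members had them in every library. Of these 12, 9 had a positive log2 fold change and 3 a negative one, where 50.7% of all genes tested were above 0. Of the 12, 2 rose, Rpl8 and Rps21, against a background of 1.01% of all genes. Examples of those that were higher and did not pass were Rps9, Rps14, Rpl23, Rpl4, Rps3 and Rpl14, with log2 fold changes of 0.47, 0.34, 0.28, 0.26, 0.20 and 0.15. The 3 negative ones, Rpl32, Rps27l and Rpl3l, were at −0.09, −0.36 and −0.72 and did not pass either. The other 9 risen members held divided reads in at least 1 library.

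The large subunit was relatively higher in BRL by its sum and lower by the median of its fold changes. Summed over transcripts, the large subunit's members stood to the small subunit's as 1.01, 0.979 and 0.971 in the BRL libraries, against 0.941, 0.940 and 0.941 in the vehicle libraries, so that large subunit transcripts were relatively more abundant in each BRL library. The difference of the group means was 0.07 on the log2 scale, and 0.07 with counts in place of transcripts. The median level of large over that of small subunit members went the same way but overlapped, at −0.41, −0.41 and −0.40 on the log2 scale in BRL, against −0.39, −0.53 and −0.43 in vehicle libraries, a difference of the group means of 0.05. Yet the median log2 fold change was lower for the large subunit, 0.27 against 0.34 for the small one, and the share of members that rose was 12.5% of large and 15.6% of small subunit members. Every BRL library lay above every vehicle library in 62.5% of the large and 68.8% of the small subunit members. The difference between the subunits was not tested, since the members are not replicates of a subunit.

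A few abundant members weigh heavily in the sums. The 5 most abundant small subunit genes, Rps4x, Rps15a, Rps24, Rps25 and Rps19, held 31.1%, 35.2% and 36.5% of the small subunit's transcripts in the BRL libraries, against 40.5%, 39.6% and 41.4% in the vehicle libraries. Their log2 fold changes were 0.02, −0.27, −0.05, −0.10 and 0.14, below the small subunit's median, and none passed the test. The 5 most abundant large subunit genes, Rpl32, Rpl13a, Rpl26, Rplp0 and Rpl23a, held 25.8%, 26.7% and 26.3% of the large subunit's transcripts in BRL, against 27.2%, 27.3% and 27.5% in vehicle libraries, a smaller gap. With these 5 and 5 genes taken out, a choice made after their values were seen, the ratio of large to small sums was 1.08, 1.11 and 1.127 in BRL, against 1.15, 1.131 and 1.16 in vehicle libraries. Every BRL library was then below every vehicle library, the nearest by little, which is the reverse of the order with all members.

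**Figure D2:**
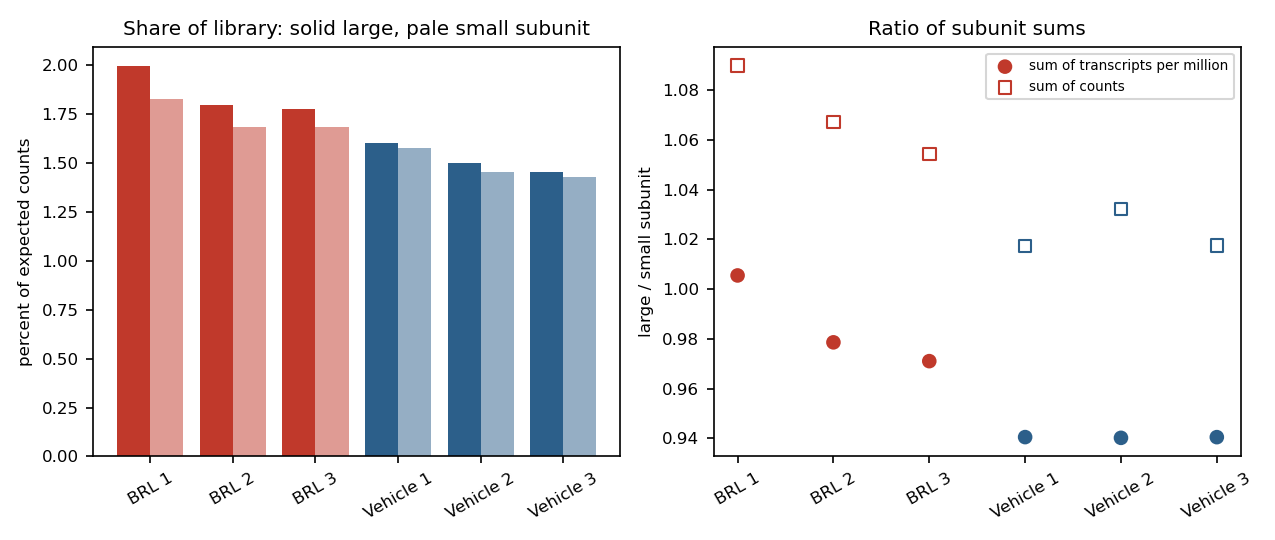
Left, percent of each library's expected counts in large (solid) and small (pale) subunit genes; right, ratio of large to small subunit sums per library, from TPM (circles) and as counts (squares). BRL libraries, in red, stand left of the vehicle libraries; their ratios of 0.971 to 1.01 in transcripts lie above the 0.940 to 0.941 of the vehicle libraries.

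Members differed far more from each other in level than between the groups. On a scale that corrects for length and depth (TPM), Rps4x was the most abundant, with 3754 ± 362 TPM in BRL and 3572 ± 256 in vehicle cells (SD, n = 3 each), and Rps15a and Rps24 came next. Rps15a had 3359, 3080 and 3394 TPM in the BRL libraries, against 4251, 3665 and 3777 in the vehicle libraries. It lay below Rps4x in each BRL library and above it in each vehicle library, and its own log2 fold change of −0.27 ± 0.14 did not pass (adjusted p 0.282, edgeR's quasi-likelihood test). Among large subunit genes, Rpl32 averaged 2894 ± 101 in BRL and 3001 ± 184 in vehicle cells. At the low end stood Rpl3l with 2.73 ± 0.299 TPM in BRL and 4.26 ± 0.784 TPM in vehicle cells, and then Rpl27, Rpl7l1, Rpl31 and Rps13 with means between 48.6 and 57.4 over all 6 libraries. Matching pseudogenes held 93.1%, 91.0% and 94.7% of the combined counts of Rpl27, Rpl31 and Rps13, so their low levels depend on how reads were divided. In the vehicle libraries the ranges of Rps15a, Rps4x and Rps24, neighbours in the order of levels, overlapped. The median level in TPM was 928 for large and 1245 for small subunit genes in BRL cells, against 669 and 916 in vehicle cells.

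In every BRL library the members of both subunits were on balance above the vehicle mean. Relative to the vehicle mean, the median log2 level of large subunit members was 0.28, 0.28 and 0.22 in BRL libraries 1, 2 and 3, and that of small subunit members was 0.32, 0.38 and 0.28. The spread was not alike: the SD over members was 0.42 in BRL library 1, against 0.27 and 0.22 in libraries 2 and 3. Of the 80 members, 59, 70 and 72 lay above the vehicle mean in BRL libraries 1, 2 and 3, against 63, 38 and 16 in vehicle libraries 1, 2 and 3. BRL library 1 thus had fewer such members than vehicle library 1, while its median over all members was 0.28, against 0.04 in vehicle library 1. In BRL library 1, 12 members lay below the vehicle mean that lay above it in both other BRL libraries. Across members, the change in BRL library 1 and the mean change in libraries 2 and 3 had a rank correlation of 0.73 (n = 80 genes, which share libraries and the vehicle mean).

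**Figure D3:**
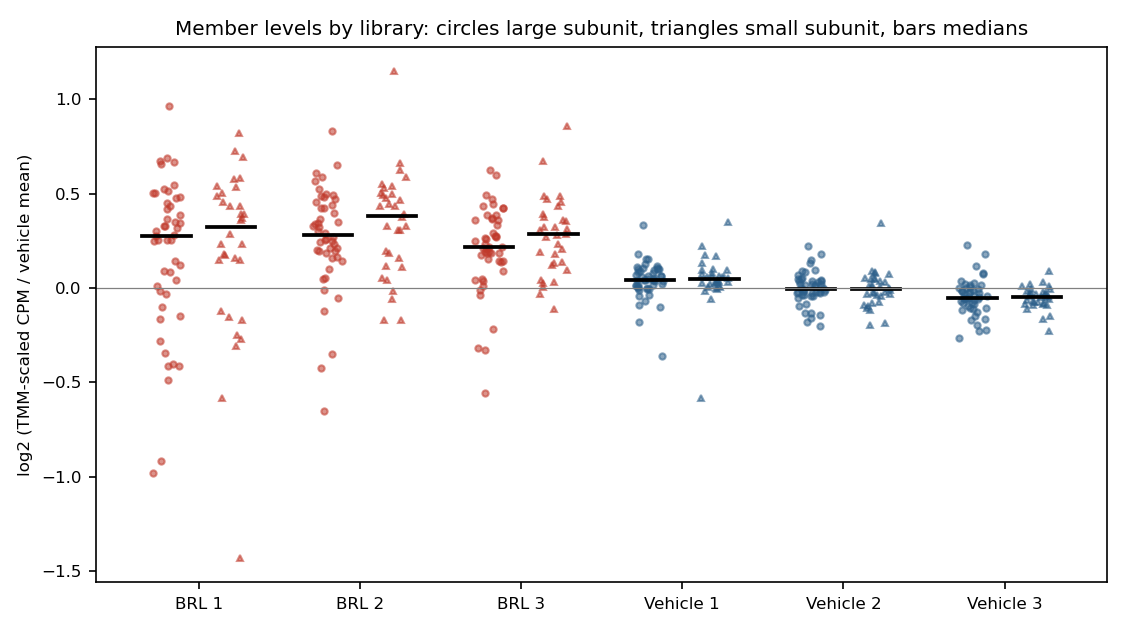
Log2 of each tested member's scaled CPM over its vehicle mean (vertical axis) in the 3 BRL and the 3 vehicle libraries, circles for the large and triangles for the small subunit, black bars the medians. All 6 BRL medians lie between 0.22 and 0.38, and BRL library 1 has the widest scatter, with Rps27l lowest at −1.43.

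Gene copies and their partners stood in other proportions in the BRL than in the vehicle libraries, which was not tested. Rpl22l1 and Rpl22 encode exchangeable forms of the same protein. Rpl22l1 had 70.1, 98.7 and 105 CPM in the BRL libraries, against 141, 121 and 136 CPM in the vehicle libraries, while Rpl22 had 246, 280 and 254 CPM in BRL, against 229, 217 and 223 CPM in vehicle libraries. Per length, Rpl22l1 stood at 35.8%, 43.4% and 51.0% of Rpl22 in the BRL libraries, against 76.3%, 69.0% and 75.3% in the vehicle libraries. The ratio was thus lower in every BRL library, by 0.77 on the log2 scale. Rpl22l1 itself had a log2 fold change of −0.53 ± 0.16 and did not pass (adjusted p 0.101, edgeR's quasi-likelihood test). Without BRL library 1 it was −0.37 and passed, with an adjusted p of 0.0065 by the same test. Over 18 alternatives, each with its own test, the adjusted p ranged from 0.0065 to 0.333. The fits with matching pseudogenes added and on the deposited log2 values are not among the 18. Rpl22 was at 0.22 ± 0.09 and did not pass (adjusted p 0.212).

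Rps27l, a copy of Rps27 known as a target of p53, stood at 8.56%, 22.5% and 22.1% of Rps27 in the BRL libraries, against 31.6%, 27.8% and 35.8% in the vehicle libraries. BRL library 1 was far below the others, and the groups did not overlap. The ratio was lower in BRL by 0.96 on the log2 scale, and by 0.50 without BRL library 1. Rps27l had 45.1, 121 and 119 CPM in BRL, against 127, 114 and 125 CPM in vehicle libraries, so that outside BRL library 1 its own level lay within the vehicle range. Its log2 fold change was −0.36 ± 0.31 with all libraries (adjusted p 0.540, edgeR's quasi-likelihood test) and −0.02 without BRL library 1 (adjusted p 0.895, with a range of 0.376 to 0.895 over the same alternatives as for Rpl22l1). Rps27, the partner, was among the genes that rose.

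Rpl3l, the copy of Rpl3 known from heart and skeletal muscle, was close to the limit of detection, with 11, 13 and 16 counts in the BRL libraries, against 10, 16 and 15 in the shallower vehicle libraries. It stood at 0.433%, 0.517% and 0.558% of Rpl3 in BRL, against 0.639%, 0.914% and 0.822% in vehicle libraries. Its log2 fold change of −0.72 ± 0.32 did not pass (adjusted p 0.235, edgeR's quasi-likelihood test), and Rpl3 was at −0.04 ± 0.09 (adjusted p 0.830). Rpl7l1, a copy of Rpl7, stood at 4.74%, 3.32% and 3.25% of Rpl7 in BRL, against 3.08%, 2.97% and 2.55% in vehicle libraries, highest in BRL library 1. It was at 0.59 ± 0.18 and Rpl7 at 0.22 ± 0.09, neither past the threshold (adjusted p 0.103 and 0.222, edgeR's quasi-likelihood test). Rpl36al, an autosomal copy of the X-linked Rpl36a, stood at 24.7%, 23.0% and 22.2% of Rpl36a in BRL, against 21.2%, 20.7% and 21.0% in vehicle libraries. Rpl36al rose, with 99.96, 105 and 96.3 CPM in the BRL libraries, against 70.4, 70.5 and 70.9 CPM in the vehicle libraries, a log2 fold change of 0.51 ± 0.09 (adjusted p 0.0268, edgeR's quasi-likelihood test), and Rpl36a was at 0.35 ± 0.09 (adjusted p 0.0836). In the 5 pairs with counts, the ratio in BRL was lower for Rpl3l, Rpl22l1 and Rps27l and higher for Rpl7l1 and Rpl36al, and no pair's groups overlapped. Among all single genes tested, every BRL library lay above every vehicle library in 16.0% and below in 15.5%. No such share was worked out for ratios. Without BRL library 1 the order of the gaps changed: on the log2 scale they were −0.64 for Rpl22l1, −0.54 for Rpl3l and −0.50 for Rps27l, and that of Rpl7l1 was 0.20, against 0.38 with all libraries.

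**Figure D4:**
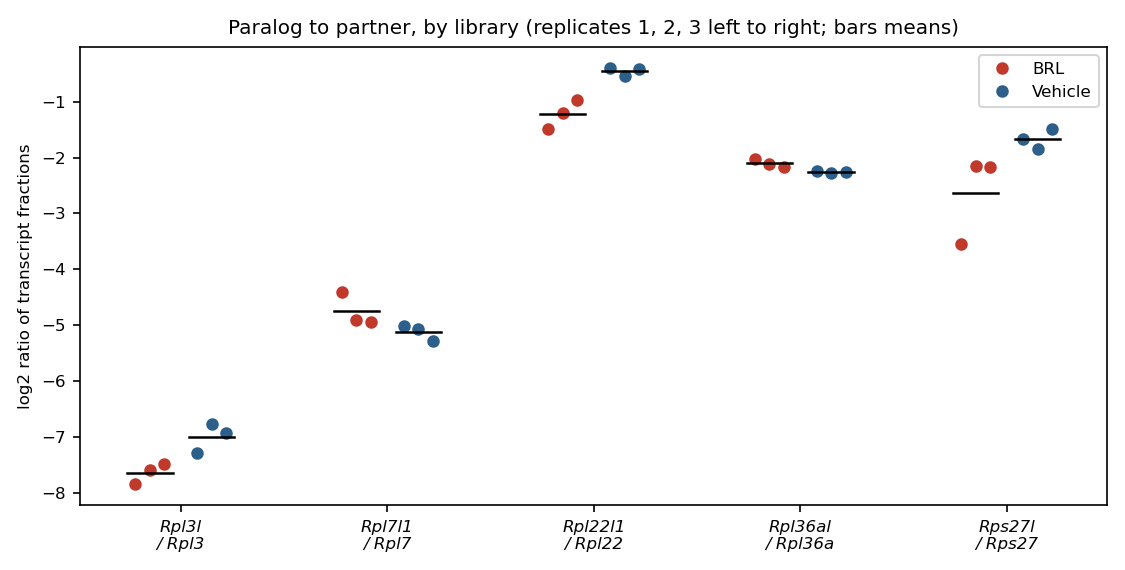
Log2 ratio of a gene copy to its partner per library, from length-corrected transcript fractions (vertical axis), for the 5 pairs with counts; BRL libraries in red stand left of vehicle libraries in blue, and bars are group means. With all libraries the gap between means is −0.96 for Rps27l to Rps27 and −0.77 for Rpl22l1 to Rpl22; without BRL library 1, which lies lowest for Rps27l, they are −0.50 and −0.64.

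Counts of some members are uncertain, because their pseudogenes carry nearly the same sequence. At 97% identity over at least 100 bases, 71 of the 82 members matched 1 or more of 355 other loci, 335 of them annotated as pseudogenes. In 11 members, 8 large and 3 small, the matching pseudogenes held more than 50% of the combined counts, up to 94.7% for Rps13 and 94.2% for Rpl5. Rps13 had 25.4, 31.9 and 26.1 CPM in the BRL libraries, against 9.58, 18.2 and 15.3 CPM in the vehicle libraries, and at 0.94 ± 0.21 its log2 fold change was the highest of all members, without passing the test (adjusted p 0.0567, edgeR's quasi-likelihood test). With its pseudogenes added it was −0.01. Rpl5, which with Rpl11 carries the small rRNA of the large subunit into the ribosome, had 50.1, 50.05 and 51.1 CPM in BRL, against 59.8, 70.6 and 60.8 CPM in vehicle libraries, and was at −0.34 ± 0.10; with its pseudogenes added it was 0.23. Neither direction of these 2 genes can be told from the counts.

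The other 9 genes of this kind were Rpl27, Rpl31, Rpl27a, Rpl10a, Rpl15, Rpl21, Rpl12, Rps6 and Rps16. In 52 members the matching pseudogenes held less than 1% of the combined counts, and adding them moved no log2 fold change by more than 0.03. Of the 11 risen members, 8 were among these 52. The median log2 fold change of the 52 was 0.29, with 0.28 over their 27 large and 0.34 over their 25 small subunit members. With pseudogenes added to every member, a choice made after the data were seen, 10 members rose (background 1.01%), all of them among the 11, and the median was 0.27.

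**Figure D5:**
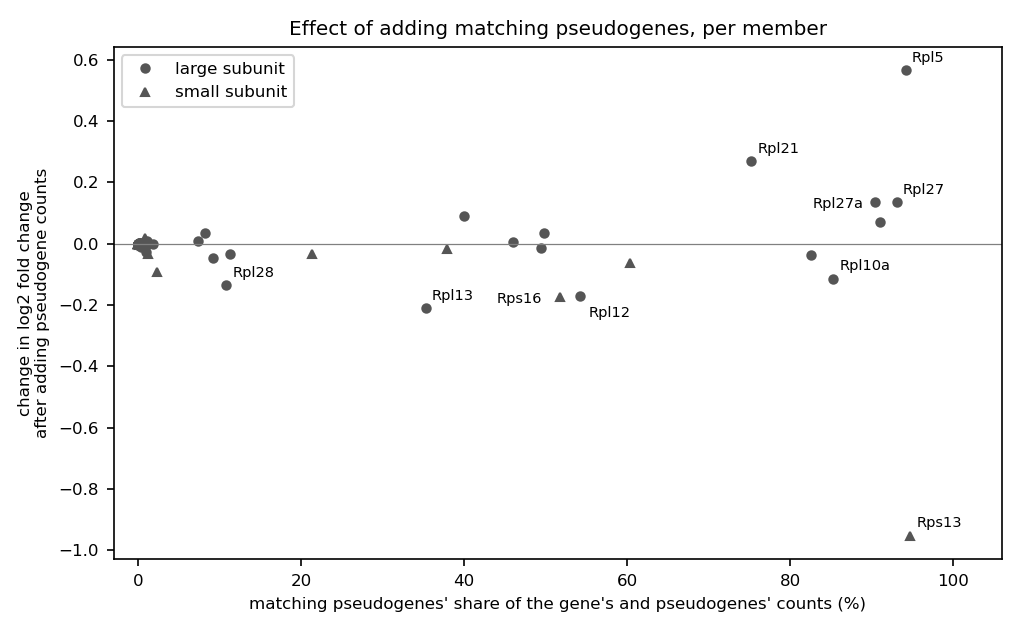
Share of the combined counts of a member and its matching pseudogenes that lies in the pseudogenes (horizontal axis, percent) and the change in log2 fold change after the pseudogene counts were added (vertical axis), circles large and triangles small subunit. The 10 labelled members moved by more than 0.1, with Rpl5 furthest up and Rps13 furthest down, while the 52 members under 1% moved by at most 0.03.

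The size of the difference went with GC content. The 20 tested members of lowest transcript GC, 39.0% to 48.5%, had a median log2 fold change of 0.04, and in 9 of them every BRL library lay above every vehicle library. In the 20 of highest GC, 54.5% to 60.8%, the median was 0.35 and 14 had every BRL library above. Among all genes tested, every BRL library lay above every vehicle library in 16.0%, a lower share than in either set of 20. The rank correlation of log2 fold change with GC was 0.37 across the 80 members and 0.23 across 11672 genes tested, all from the same libraries, and this is a description across genes, which are not independent. With a smooth trend on GC and length removed from each library, 4 members rose (background 0.930%), Rpl28, Rpl36al, Rps27a and Rps13. The direction of Rps13 cannot be told from its counts, as given with its pseudogenes above. In this fit the median log2 fold change was 0.22 over large and 0.29 over small subunit members.

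Few genes that act beside the ribosomal proteins passed the test with all libraries, and more did without BRL library 1. At an unadjusted p under 0.05 by edgeR's quasi-likelihood test with all libraries, 11.6% of all genes were higher and 10.8% lower. The shares of all genes that rose and fell were 1.01% and 1.79% with all libraries and 10.3% and 10.9% without BRL library 1; those that rose were 2.04% by DESeq2, 3.47% by edgeR's exact test, where 4.37% fell, and 0.789% by limma-voom. Of 21 other TOP mRNAs and ribosome-associated genes, 1 rose and 0 fell, with a median log2 fold change of 0.14 and 8 genes at an unadjusted p under 0.05; DESeq2, edgeR's exact test and limma-voom called 3, 2 and 0 risen and 0 fallen. Without BRL library 1, edgeR's quasi-likelihood test called 9 of the 21 risen and 0 fallen, with a median of 0.16. The risen gene with all libraries was Eef1d, a subunit of the factor that recharges elongation factor 1 with GTP, which had 126, 129 and 118 CPM in the BRL libraries, against 90.4, 96.7 and 85.5 CPM in the vehicle libraries (log2 fold change 0.45; adjusted p 0.0479, edgeR's quasi-likelihood test). Of 59 ribosome biogenesis factors, 0 rose and 0 fell by edgeR's quasi-likelihood test and by limma-voom, against 7 risen by DESeq2 and 9 risen and 1 fallen by edgeR's exact test; 57 had a positive log2 fold change and 31 an unadjusted p under 0.05, and the median was 0.37. Without BRL library 1 the biogenesis median was 0.19, with 15 risen and 1 fallen gene, while the ribosomal protein median was 0.29. Nolc1, a nucleolar chaperone, had 181, 147 and 135 CPM in the BRL libraries, against 109, 104 and 104 CPM in the vehicle libraries, with BRL library 1 highest. Of 18 tested genes for mTORC1, LARP1 and MYC, 1 rose and 0 fell, with a median of 0.20 and 3 genes at an unadjusted p under 0.05; 1 rose by DESeq2, 1 by edgeR's exact test and 0 by limma-voom, and 0 fell. Without BRL library 1, edgeR's test called 4 of the 18 risen (Akt1s1, Ddit4, Sesn2 and Myc) and 1 fallen (Rps6kb1), names given after their values were seen, with a median of 0.15. The risen gene with all libraries was Akt1s1, which encodes an inhibitory subunit of mTORC1, with 63.9, 54.0 and 48.5 CPM in BRL, against 38.1, 36.7 and 35.1 CPM in vehicle libraries (log2 fold change 0.60; adjusted p 0.0477, edgeR's quasi-likelihood test).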

How the data were processed

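RNA of HL-1 cells was sequenced in 3 BRL and 3 vehicle libraries. Per the submitters' processing notes the authors used cutadapt, Bowtie and RSEM 1.17 with build NCBIM37, with no settings stated. Deposited by the authors were expected counts per gene, a length-corrected fraction of transcripts, and a table of log2 values, used for an alternative only. Here, expected counts were rounded and fitted with edgeR 4.0.16 (R 4.3.3) on all genes: filterByExpr with a minimum count of 10, TMM factors and the quasi-likelihood test on group, adjusted by Benjamini-Hochberg. Standard errors are the log2 fold change over the root of F. TPM rescales the deposited fraction, and CPM is TMM-scaled. The sources do not say whether reads were assigned by strand, so it is not known whether reads of antisense partners are in the counts. Whole means within 0.005 of a whole number. Symbols, GC and lengths came from GENCODE M21, starts from RefSeq, and matching loci from BLAST 2.17.0. Sums and ratios have no test: an exact permutation test of 3 against 3 libraries cannot go below p = 0.1. The members and lists were chosen with earlier results of these data known. Named are all members past the threshold, the 3 highest and 3 lowest in level and fold change per subunit, gene copies and partners, stalk genes and whole-count members; a few of these are not reported here. DESeq2 1.42.0 and limma 3.58.1 served as alternatives.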

Additional observations from a re-analysis of the deposited data

How the results depend on the processing

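The count of risen members, 11 (6 large, 5 small), moved with the processing, and the direction of the medians did not. It was 1 (1 and 0) with library totals in place of TMM, 20 without the filter (11 small), 29 with DESeq2 (14 and 15), 28 with edgeR's exact test (13 and 15), 4 with the length and GC trend removed (2 and 2), 34 with that trend removed and BRL library 1 left out (19 and 15) and 2 among members with whole counts (1 and 1). The share of all genes tested that rose in these fits was 0.639% with library totals, 1.40% without the filter, 2.04% with DESeq2, 3.47% with the exact test, 0.930% with the trend removed and 7.18% with that and without BRL library 1, against 1.01% in the fit reported. With matching loci added, 9 members rose, 6 large and 3 small, where 1.00% of all genes rose. With matching pseudogenes added and BRL library 1 left out, an alternative chosen after seeing the data like the pseudogene, deposited log2 and no-paralog ones, 54 rose (34 and 20; 10.4% of all genes). Leaving out 1 library gave 0 to 52 risen members (0 to 31 large, 0 to 21 small) and 0 to 2 fallen ones, where 0.138% to 10.3% of all genes rose. The count of fallen members, 0, was 1 with DESeq2, the exact test, and both fits that joined another change to the loss of BRL library 1. The cause of these moves was not tested, beyond the fewer samples or members that some fits hold by construction.

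The median for the large subunit, 0.27, was 0.31 with library totals, 0.22 with the length and GC trend removed, 0.18 with that and without BRL library 1, 0.21 over whole-count members, and 0.24 to 0.31 with 1 library left out. For the small subunit, 0.34, it was 0.29 with the trend removed, 0.20 with that and without BRL library 1, 0.40 over whole-count members, 0.29 with pseudogenes added and BRL library 1 left out, and 0.32 to 0.40 with 1 library left out. The share of counts and the 5 copy ratios kept their sign under the alternatives run for them. The ratio of subunit sums kept it with counts, medians, matching loci added or 1 library left out, but its log2 difference of 0.067 turned to −0.054 with the 5 most abundant members of each subunit taken out, an alternative chosen after seeing the data.

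Same-numbered libraries did not visibly deviate together: their correlations were 0.10, −0.02 and −0.02, against −0.11 to 0.13 between differently numbered ones. With 3 libraries a group, such correlations cannot settle whether the numbers pair the libraries. With the replicate number as a block, 3 members rose (1 large, 2 small: Rpl28, Rps13 and Rps27a), where 0.523% of all genes rose. For Rps13 this call has the limit given above, that its direction depends on whether its pseudogenes are added.

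The 11 risen members stayed positive in all 231 values under alternatives and passed in 148. Directions turned in 9 other named members, none past the threshold. With matching loci or pseudogenes added, Rpl3 was at 0.048, Rpl5 at 0.23 and Rps13 at −0.0105; with pseudogenes added and BRL library 1 left out, Rpl3 was at 0.056, Rpl5 at 0.10, Rpl32 at 0.046 and Rps24 at 0.047. With both BRL library 1 and the length and GC trend taken out, Rpl27 was at −0.094, Rps24 at 0.092, Rps25 at 0.012 and Rps27l at 0.028. With 1 library left out, Rpl32 ran between −0.17 and 0.045, Rps24 between −0.10 and 0.048 and Rps4x between −0.023 and 0.11, the first pair turning without BRL library 1 and Rps4x without BRL library 2 or 3. Depth limits Rpl3l, with 10 to 16 counts a library, and Rpl10l and Rpl39l at 0, which allows up to 0.440 CPM in BRL and 0.676 CPM in vehicle libraries, counting error only.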
